A study of Drosophila melanogaster with 6 samples.

Results

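The respiratory chain of the mitochondrion is built largely from proteins encoded in the nucleus. Described here are 88 of those genes, for the peaks that an antibody against N6-methyladenosine (m6A) gave on their transcripts in fly heads. They were chosen by name from the RefSeq gene table of the Release 6 assembly of Drosophila melanogaster, as the nuclear protein-coding genes whose symbol begins with ND-, Sdh, UQCR-, COX or ATPsyn. The 6 chromosome arms that carry peaks hold 13922 protein-coding genes in all. The RNA came from whole heads of male and female w1118cs flies on the standard diet, with no mutant and no treatment, kept at 25°C with 12 h of light and 12 h of dark. About 800 heads and 20 µg of poly(A)-selected RNA went into each of 3 biological replicates, each with a CLIP library (RNA fragments crosslinked to the antibody with ultraviolet light) and an input library that was not enriched. The authors deposited 1 list of called peaks per replicate, called lists 1, 2 and 3 here. All 6 libraries belong to a single kind of fly, so the comparisons are between genes, complexes and replicates, not between conditions.

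Complex I (NADH dehydrogenase) and complex II (succinate dehydrogenase) feed electrons from fuel oxidation into the chain, complex III passes them to cytochrome c, and complex IV (cytochrome c oxidase) hands them to oxygen. Complexes I, III and IV pump protons, and ATP synthase lets the protons flow back through its rotor to make ATP. Brain, photoreceptors and muscle, all present in a fly head, are known for heavy use of this pathway. m6A is a methyl mark on adenosines inside mRNA that reader proteins recognise, and in Drosophila it is known to be frequent in the 5′ part of transcripts.

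The lists held 14329, 7232 and 6645 peaks, in bins of 50 bp. Lists 1 and 3 start at 7 CLIP reads per bin and list 2 at 25. Reads were not scaled to library size and the libraries' totals are not in the lists, so depth is unknown. The labels call the cell type neurons, but the material was whole heads. Of 5 neuronal markers, nSyb, brp and Syt1 had peaks in every list, while elav and Syx1A had no peak of their own. The glial markers repo, Eaat1 and nrv2, the muscle markers Mhc, bt and up, and 2 of 3 photoreceptor markers (ninaE and trp, not Arr2) also had peaks in every list. Only 4 of the 5 neuronal and 2 of the 3 photoreceptor markers had a bin free of other protein-coding genes. Arr2, and either elav or Syx1A, thus could not receive a peak of their own. The testis markers dj, Mst87F and can had none.

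Transcripts of the respiratory chain were found over and over. A peak counts as a gene's own where its midpoint falls within that gene's span, introns included, and outside all other protein-coding spans. The 88 genes had 215, 109 and 143 such peaks in lists 1, 2 and 3, and a further 33, 14 and 21 peaks also lay in another protein-coding span. Of the 88 genes, 76 had at least 1 bin outside every other protein-coding span and could receive a peak of their own. Among these 76, 43 (56.6%) had one in all 3 lists, where 13.5% of all 12058 protein-coding genes with a bin of their own did. In at least 1 list the count was 62 (81.6%) against 29.1% of those genes. Fewer CLIP than input reads per bin, unscaled, were held by 84.7%, 58.7% and 95.8% of own peaks in lists 1, 2 and 3. The shares of all peaks were 44.3%, 17.0% and 55.7%. A count of genes with peaks is thus not a count of methylated transcripts. The lists say nothing of how abundant each mRNA is, apart from input reads under peaks, so a gene without a peak cannot be told apart from a gene with little RNA. In whole heads, fewer cells that use a gene and less RNA per cell cannot be told apart either.

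**Figure D1:**
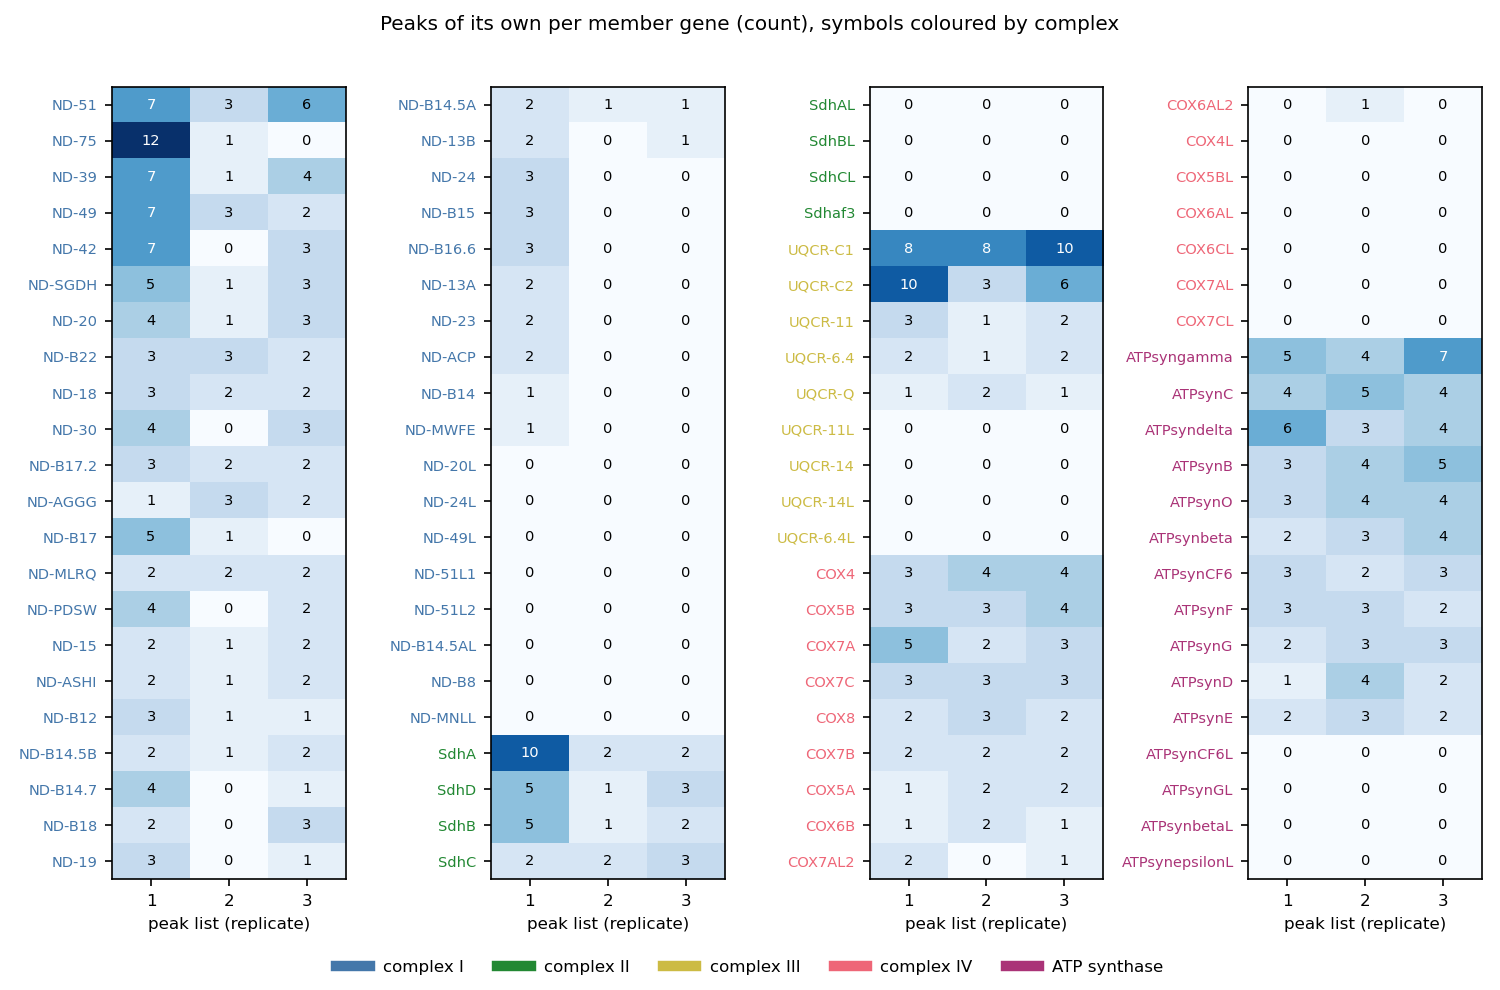
Number of peaks of its own for each of the 88 genes (rows, symbols coloured by complex) in peak lists 1, 2 and 3 (columns); darker cells hold more peaks. ATP synthase and complex IV genes without an L at the end of the symbol have peaks in every list, while symbols ending in L sit almost entirely at 0.

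ATP synthase was found throughout. All 11 of its genes without an L at the end of the symbol had peaks of their own in every list, with 34, 38 and 40 peaks in total. They included ATPsynbeta (the catalytic subunit), ATPsyngamma (the rotor shaft), ATPsynC (the membrane ring), and ATPsynO, ATPsynB, ATPsynD and ATPsynCF6 (the peripheral stalk). Peaks spread over much of these short genes. In the median ATP synthase gene they covered 51.1%, 34.2% and 43.2% of the span in lists 1, 2 and 3, compared with 3.37%, 1.49% and 1.18% in the median protein-coding gene with a peak in every list. The spans differ greatly in length, with a median of 1226 bp for the 11 genes and 11506 bp for the 1629 genes.

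Complex IV followed the same course. COX4, COX5A, COX5B, COX6B, COX7A, COX7B, COX7C and COX8, nuclear subunits that surround the catalytic core, all had peaks in every list, with 20, 21 and 21 peaks in total. In complex II, SdhA (the flavoprotein that oxidises succinate), SdhB (its iron-sulfur partner) and the membrane anchors SdhC and SdhD had 22, 6 and 10 peaks. In complex III, UQCR-C1 and UQCR-C2 (the core proteins), UQCR-11, UQCR-6.4 and UQCR-Q had peaks in every list. UQCR-C1 held more peaks of its own over the 3 lists together than any of the other 87 genes, with 8, 8 and 10, and UQCR-C2 had 10, 3 and 6.

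Complex I was the most uneven between lists. Of its 34 genes without an L symbol, 32 had a peak of their own in list 1, 17 in list 2 and 22 in list 3, where 27.1%, 17.5% and 16.7% of the 12058 genes did, and 15 had one in every list. These 15 were ND-15, ND-18, ND-20, ND-39, ND-49, ND-51, ND-AGGG, ND-ASHI, ND-B12, ND-B14.5A, ND-B14.5B, ND-B17.2, ND-B22, ND-MLRQ and ND-SGDH. Of the rest, 9 genes were found in 2 lists and 8 in list 1 alone. ND-75, which carries iron-sulfur clusters in the arm that takes electrons from NADH, had 12, 1 and 0 peaks. Its peaks in list 1 had 7 to 13 CLIP reads per bin, close to the lowest value of that list. ND-24, another subunit of that arm, had 3, 0 and 0 peaks, and ND-ACP, the mitochondrial acyl carrier protein, had 2, 0 and 0. ND-51, which binds NADH, had 7, 3 and 6.

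Duplicate genes had almost no peaks. Of the 88 genes, 20 have a symbol that adds L, or L and a digit, to the symbol of another of them, and many such nuclear duplicates are known in this fly for expression in the testis. None of the 20 had a peak of its own in all 3 lists, while 16 of their 18 parent genes did. COX7AL2 was the exception among the 20, with 2 peaks in list 1, none in list 2 and 1 in list 3. ATPsynbetaL had 0, 0 and 0 peaks where ATPsynbeta had 2, 3 and 4, and SdhBL had 0, 0 and 0 where SdhB had 5, 1 and 2. In 19 of the 20 no peak of any kind fell. Of the 20, 11 had a bin outside other spans and could receive a peak of their own. Of these 11, 0 were found in every list, where 13.5% of all such genes were, and 1 (COX7AL2) in at least 1 list, where 29.1% were. With only 11 genes, such counts are not read as lower than those of genes at large, and it is the parent genes that lie above them. Another 4 L symbols (COX6AL, COX6AL2, COX6CL and ATPsynepsilonL) copy genes that carry other names, a grouping made after their values were seen. COX6AL2 had 1 peak, in list 2, and the other 3 had none. Reads shared by near-identical copies could be split by the alignment, and how such reads were handled is not given in the sources used here.

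The genes without an L symbol that had no peak of their own numbered 4. For UQCR-14, a small subunit of complex III, 4, 2 and 4 peaks lay in its span, all of them also in the span of CG32576. For ND-MNLL, a small subunit of complex I, 1, 2 and 3 peaks also lay in the span of CG45089. ND-B8, of complex I, and Sdhaf3, an assembly factor of complex II, had no peak of any kind. ND-MWFE had a single peak of its own and 2, 1 and 2 that it shared with TppII. The long span of ND-15 overlaps many other genes, CG3164 and Gs1 among them. Its 2, 1 and 2 own peaks were on the plus strand, while 13, 7 and 9 of the peaks that it shared with other spans were on the minus strand. Counting peaks for every span they fall in raised the number of genes found in all lists from 43 to 46. The peaks of each of the 62 genes with a peak of its own kept to a single strand over all 3 lists, as they did in 91.2% of the 3504 protein-coding genes with such peaks.

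Genes of neighbouring steps were also counted. Among 10 further respiratory chain genes with other names, blw and sun (the alpha and epsilon subunits of ATP synthase), Cyt-c1, RFeSP (the Rieske iron-sulfur protein), Cyt-c-p (cytochrome c), levy, cype and ox had peaks in all 3 lists. Cyt-c-d and knon, both known for expression in the testis, had none. Of 17 genes for carriers and the citric acid cycle, 12 had peaks in every list, among them kdn (citrate synthase) with 6, 9 and 12, Mdh2 (malate dehydrogenase) with 4, 6 and 8 and porin with 4, 9 and 9. The carriers sesB and Ant2 had no peak of their own. Of 14 assembly factors and regulators, 12 could receive a peak of their own. None of them had peaks in every list, and Cchl, Cox10 and ewg had them in 1 list each, counts near the 13.5% and 29.1% of all such genes. The 13 protein-coding genes of mitochondrial DNA were not analysed here, since the lists name no mitochondrial chromosome.

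Peaks overlapped often between list 1 and either other list, and less so between lists 2 and 3. Of the 109 own peaks of list 2, 99 (90.8%, 95% Wilson interval 83.9 to 94.9) overlapped a peak of list 1 on the same strand. Of the 143 own peaks of list 3, 134 (93.7%, 88.5 to 96.7) overlapped list 1, and 82 (57.3%, 49.1 to 65.2) overlapped list 2. The corresponding shares for peaks of all protein-coding genes were 82.0%, 82.2% and 70.0%. Over the 3 pairs the mean was 80.6% ± 20.2 (SD) for the respiratory chain and 78.1% ± 7.0 for all genes, a difference smaller than the spread between pairs. The intervals cover counting error only, since neighbouring peaks of a transcript are not independent. An overlap of 1 bp was enough. Peaks of list 1 covered a median of 39.7% of the span in respiratory chain genes found in every list, against 3.37% in all such genes. The shares against list 1 therefore do not show that peaks lay at exactly the same place.

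To compare the same places across replicates, overlapping peaks on the same strand were merged into loci, and 3307 loci held a peak of every list. Of these, 68 lay in a respiratory chain gene and in no other protein-coding span, in 40 of the 43 genes found in every list. Overlap with non-coding genes was allowed, and 1 of the 68, in ATPsynC, also lies over the gene of the RNase P RNA. ND-AGGG, ND-B14.5A and SdhA had peaks in each list but no place shared by all of them. At each locus the log2 ratio of CLIP to input reads per bin was taken within a list, after adding 1 read to both, and the median of all 3307 loci was subtracted. Those medians were 0.65, 1.75 and 0.17 in lists 1, 2 and 3. A centred ratio of 0 is therefore the median locus of a list and not the absence of methylation.

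Every one of the 68 loci had a mean centred ratio below 0, although the highest of them, ND-15 at −0.01, stood at 0.011 with a pseudocount of 2. In 65 of them all 3 lists were below 0, as in 44.5% of all loci. A moderated test in limma, two-sided, fitted over the 3307 loci with Benjamini-Hochberg adjustment, placed 62 of the 68 below the median locus and none above it, also none at an unadjusted p under 0.05 and none with a mean-variance trend. Across all loci the test placed 42.5% below and 40.8% above. Adjusted p-values of the 62 ran from 0.000612 to 0.0325. The median of the 68 mean ratios was −1.70 on the log2 scale. The medians of the single lists were −1.18, −1.94 and −1.74, a mean of −1.62 ± 0.39 (SD, n = 3), so all 3 replicates showed the same direction.

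**Figure D2:**
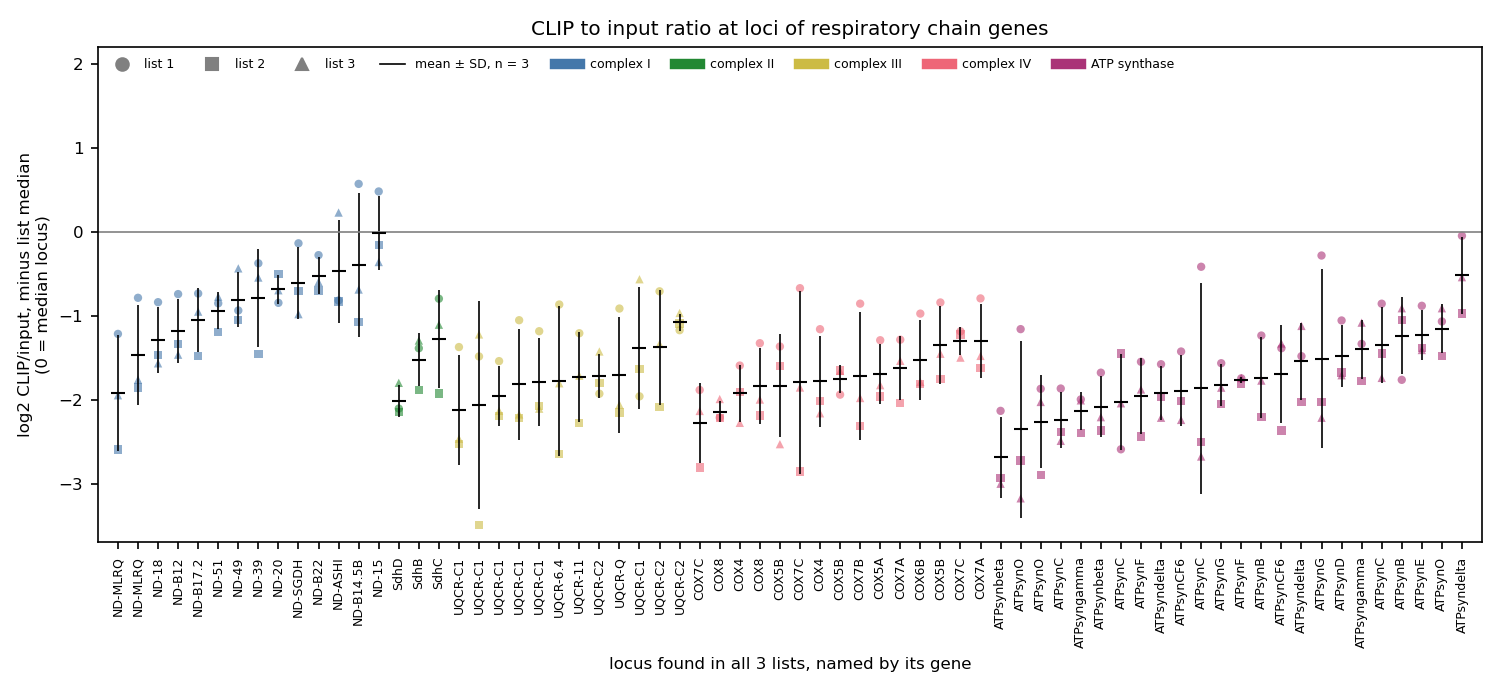
Log2 ratio of CLIP to input reads per bin, minus the median of all loci of the same list (vertical axis), for the 68 loci of respiratory chain genes, ordered within each complex; symbols mark lists 1, 2 and 3, and bars give the mean ± SD (n = 3). All 68 means lie below 0, from −2.68 at ATPsynbeta to −0.01 at ND-15, and the 3 highest belong to complex I.

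Of the 24 loci of ATP synthase, 23 were below the median locus, with a median ratio of −1.79. Complexes III and IV were as low within the spread of the lists, and in list 2 complex III was lower, with a median of −2.17 against −2.02. A locus of ATPsynbeta (chromosome 4, 1031851 to 1031950, plus strand) carried 23.5, 31 and 11 CLIP reads a bin, with 67.3, 71.4 and 84.0 input reads a bin, in lists 1, 2 and 3. All 3 lists were far below their medians, and the mean centred ratio of −2.68 ± 0.48 (SD, n = 3) was the lowest of the 68 (limma adjusted p = 0.000612). A second, much wider locus of ATPsynbeta, at 1032901 to 1034550, gave −1.67, −2.36 and −2.20. ATPsynO (3R, 15266451 to 15266700, plus strand) carried 24.4, 31.5 and 10 CLIP reads a bin, with 35.1, 62.8 and 86.9 input reads. Its centred ratios of −1.16, −2.72 and −3.17 were all low but spread widely (mean −2.35 ± 1.06, limma adjusted p = 0.00144). ATPsyngamma (3R, 29747701 to 29748050, minus strand) was tighter, at −2.13 ± 0.23 (SD, n = 3). The single ATP synthase locus that did not pass was that of ATPsyndelta, a part of the central stalk, (X, 10214151 to 10214500, plus strand), with −0.05, −0.97 and −0.54 (limma adjusted p = 0.0979). Without list 1 it passed, at −0.75 (adjusted p = 0.0306), and without list 2 it stood at −0.29. Another 2 loci of ATPsyndelta did pass, with means of −1.91 and −1.54.

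Among the 68 loci, those of ATPsynC, the ring of the rotor, held the highest reads a bin of either kind in every list. One of its loci (3R, 31218901 to 31219000, minus strand) carried 54, 148 and 46 CLIP reads a bin, with 45.7, 250 and 265 input reads. List 1 was near the median locus at −0.41, and lists 2 and 3 were far below it at −2.50 and −2.67. The locus at 31216101 to 31217150 gave −0.85, −1.45 and −1.74. The locus at 31217351 to 31217650 covers nearly the same stretch as the gene of the RNase P RNA (RNaseP:RNA), annotated at 31217364 to 31217662 within the span of ATPsynC, so its reads cannot be given to ATPsynC alone. It carried 41.3, 104 and 23.5 CLIP reads a bin, with 161, 84.4 and 88.4 input reads.

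Complexes IV, III and II were close to ATP synthase. All 15 loci of complex IV were below the median locus, with a median ratio of −1.74. The lowest lay in COX7C (2R, 10049751 to 10049900, plus strand), which carried 24.7, 42 and 16.3 CLIP reads a bin, with 59.2, 88.5 and 66.4 input reads. Its mean centred ratio was −2.27 ± 0.48 (SD, n = 3, limma adjusted p = 0.000618). A locus of COX8 (3L, 21539251 to 21539400, minus strand) varied least between replicates of the 15, with −2.21, −2.21 and −1.99. The highest complex IV loci, in COX7A and COX7C, still had mean ratios of −1.30. All 12 loci of complex III were below the median locus, with a median of −1.75, and 6 of them belonged to UQCR-C1. The lowest, in UQCR-C1 (3R, 14891801 to 14891900, plus strand), carried 17.5, 34 and 8 CLIP reads a bin, with 29.5, 59 and 43 input reads, and had a mean of −2.12 ± 0.65 (SD, n = 3, limma adjusted p = 0.00082). The highest, in UQCR-C2 (3L, 16584301 to 16584400, plus strand), had a mean of −1.07 ± 0.10 (adjusted p = 0.00322). Another locus of UQCR-C1 (3R, 14891151 to 14891300, plus strand) gave −1.48, −3.48 and −1.22, and its mean of −2.06 moved to −1.35 without list 2. In complex II, SdhD (3R, 23760451 to 23760500, minus strand) carried 14, 40 and 11 CLIP reads a bin, with 40, 53 and 36 input reads. Its 3 ratios lay close together, at a mean of −2.01 ± 0.19 (SD, n = 3, limma adjusted p = 0.000612). SdhB and SdhC followed with means of −1.52 and −1.27.

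Complex I was nearest to the median locus. Of its 14 loci 9 passed the test, and the median ratio was −0.80. ND-MLRQ (3L, 23339401 to 23339700, plus strand) was the lowest and carried 18.7, 55 and 15.7 CLIP reads a bin, with 28.1, 99.4 and 55.9 input reads. All 3 of its ratios, −1.21, −2.59 and −1.94, were low (limma adjusted p = 0.00118). ND-18, an accessory subunit (X, 19493051 to 19493300, plus strand), had −0.84, −1.46 and −1.56. ND-51 and ND-49, which belong to the conserved core, had means of −0.94 and −0.80. A peak of ND-49 found in list 2 alone (chromosome 4, 569401 to 569450, minus strand) carried 228 CLIP reads a bin, with 4 input reads, and is in none of the loci. Some calls of complex I were lost when a list was left out. ND-20 had adjusted p-values of 0.0535 to 0.0891 with any 1 list left out, while its mean of −0.68 stayed between −0.77 and −0.60. ND-39 moved from −0.79 to −0.46 without list 2 (adjusted p = 0.205) and to −0.91 without list 3 (0.0540). ND-49 moved from −0.80 to −0.68 without list 2 (0.0863). The 5 loci that did not pass lay in ND-SGDH, ND-B22, ND-ASHI, ND-B14.5B and ND-15. ND-15 (2L, 155351 to 155750, plus strand) carried 28.9, 60 and 14.3 CLIP reads a bin, with 12.6, 19.2 and 16.4 input reads. Its ratios of 0.48, −0.15 and −0.36 fell on both sides of 0, with a mean of −0.01 ± 0.44 (limma adjusted p = 0.973). ND-B14.5B had 0.57, −1.07 and −0.68 (adjusted p = 0.306), and ND-ASHI had −0.82, −0.83 and 0.23 (adjusted p = 0.159). ND-B14.5B and ND-SGDH passed without list 1, at −0.88 and −0.84 (adjusted p = 0.0137 and 0.0172), and ND-ASHI passed without list 3, at −0.82 (adjusted p = 0.0443).

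The median ratio of ATP synthase loci was lower than that of complex I by 0.69, 0.90 and 1.13 on the log2 scale in lists 1, 2 and 3, a mean difference of −0.91 ± 0.22 (SD, n = 3). An exact test on 3 paired values cannot pass 0.05, and none was run. The complexes differed more in input than in CLIP reads. Input reads per bin had medians of 16.5, 22 and 19.5 at complex I loci and 35.3, 51.0 and 38.4 at ATP synthase loci. CLIP reads had medians of 16.8, 33.5 and 12.4 at complex I loci and 21.4, 38.4 and 13.5 at ATP synthase loci.

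**Figure D3:**
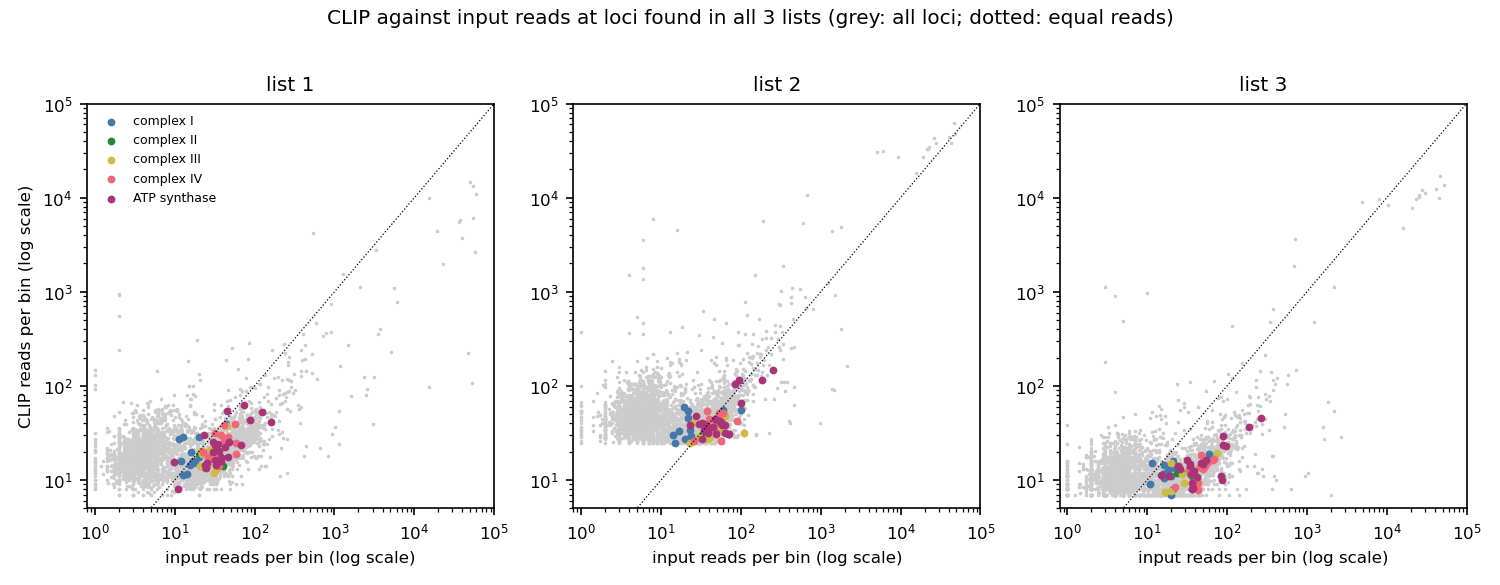
CLIP reads per bin against input reads per bin, both on log scales, at the 3307 loci found in all 3 lists (grey) and at the 68 loci of respiratory chain genes (coloured by complex), with 1 panel per list; the dotted line marks equal reads. The coloured points lie in the grey cloud with more input reads, and 1 of them, in ATPsyndelta, is under 10 input reads, at 9.90 in list 1.

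The same held against all loci. In respiratory chain loci the median CLIP reads per bin were 19, 38.1 and 12.8, against 18.7, 45 and 11 over all 3307 loci. Median input reads were 29.9, 40.7 and 36.0, against 11.0, 12 and 10. Most peaks came close to the lowest CLIP value of their list, in these genes and in the lists as a whole. At most 2 times that minimum was held by 68.4%, 86.2% and 78.3% of own peaks and by 76.8%, 69.0% and 74.5% of all peaks. The share of own peaks was thus not higher in every list. No respiratory chain locus had fewer than 10 input reads per bin in every list, while 42.9% of all loci did. None had more CLIP than input reads in every list, while 50.1% of all loci did, and 41 of the 68 (60.3%) had fewer CLIP than input reads in every list, against 14.6%. In loci of several bins the input is a geometric mean, which leans the ratio upward.

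When CLIP reads were adjusted for input reads by a straight line over all loci of each list, an alternative chosen after seeing the data, 26 of the 68 loci stayed past the threshold on the lower side and 3 moved to the upper side, where 19.8% and 22.1% of all loci were called below and above. The median rose from −1.70 to −0.44. The order of the complexes changed as well, with medians of −0.65 for complex III, −0.62 for complex II, −0.46 for complex IV, −0.41 for ATP synthase and −0.21 for complex I. The 3 loci above were all in ATPsynC, at 31217701 to 31217950, 31218901 to 31219000 and 31216101 to 31217150, with 0.50, 0.77 and 0.71 (limma adjusted p = 0.0316, 0.0107 and 0.0168). The lowest loci were in UQCR-C1, UQCR-C2 and ND-18, at −0.87, −0.85 and −0.84.

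Few loci of the respiratory chain had their midpoint at the start of the gene, about as many as an even spread would give. Read in the direction of the peaks' strand, which is used because the gene table gives none, 6 of the 68 (8.8%) had their midpoint in the first 10% of the span, where 38.4% of the 2925 loci in a single protein-coding span lay. These 6 were in UQCR-C1, ND-MLRQ, ATPsyndelta, COX5B, UQCR-11 and ATPsynO, with mean ratios from −1.95 to −1.15. The median position was 59.9% along the span, against 27.9% over all loci. Respiratory chain genes found in every list had a median span of 1272 bp, against 11506 bp in all such genes. Loci had a median width of 200 bp, so few midpoints could fall in the first 10% of a short span. The 8.8% is therefore not read as a lack of peaks near the start.

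**Figure D4:**
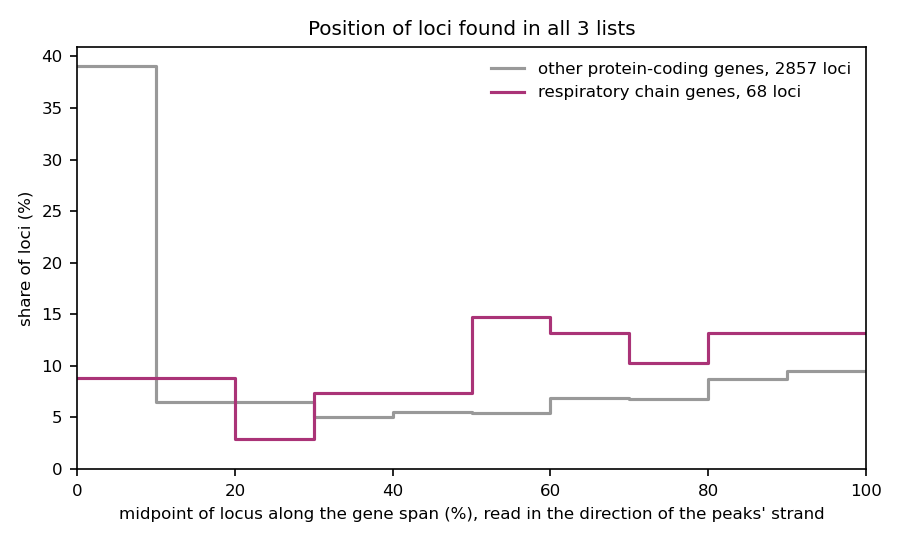
Share of loci (vertical axis, %) by position of their midpoint along the gene span (horizontal axis, %, from the start in the direction of the peaks' strand) for 68 loci of respiratory chain genes and 2857 loci of other protein-coding genes. The other genes have a tall first step, and the respiratory chain genes do not.

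Other short genes were close to the respiratory chain in ratio and position and differed from it in some read counts, a comparison added after the values were seen. Of the 68 loci, 46 lay in genes with a span under 2000 bp. Other protein-coding genes under 2000 bp had 362 loci in 194 genes, of which 89.2% were below the median locus, with a median ratio of −1.68, where the 46 had 91.3% and −1.65. Loci in the first 10% of the span made up 7.7% of the 362 and 4.3% of the 46, and the median position was 53.7% and 65.9% along the span. Fewer CLIP than input reads in every list were seen at 36.2% of the 362 and 58.7% of the 46, and more CLIP than input reads in every list at 4.4% and at none. These differences were not tested. In other genes of 2000 bp or more, 32.4% of 2495 loci were below, 49.7% above, and 43.6% lay in the first 10% of the span. The low ratio and the small share of loci at the start were thus seen in short genes at large as well. Respiratory chain loci in genes of 2000 bp or more were also below the median locus, except a locus of ATPsyndelta and that of ND-15. Apart from ND-15, these genes span 2157 to 6611 bp, while the 1629 genes with a peak in every list have a median span of 11506 bp. The class of 2000 bp or more is thus not matched to them in length, and the contrast with its 32.4% was not tested. Fewer than 10 input reads per bin in every list were seen at 2.5% of the 362 loci and 52.3% of the 2495.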

How the data were processed

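The files are 3 peak lists without headers, each named in the labels of 1 CLIP and 1 input library. Per the submitters' processing notes, STAR 2.7.5a was used, with builds dm6 and BDGP6; the peak caller, its thresholds and filters are not given in the sources used here. The deposited signal gives CLIP reads per 50 bp bin, averaged over a peak, and the deposited natural log column gives input reads per bin. Both readings come from the values; whether 1 read was added before the log is unknown. The deposited p-value was used only to rank peaks. Coordinates are 1-based.

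Genes came from the RefSeq table (Release 6 plus ISO1 MT), which has no strand or exons. Python 3.11.15 and pandas 2.3.3 were used, with limma 3.58.1 in R 4.3.3. On simulated loci with the real spread, limma called 38 of 50 shifted by −2, 17 of 50 shifted by −1 and 2 of 3107 unchanged ones. It called 7 of 50 shifted by 1 and 39 of 50 shifted by 2. Most simulated loci were unchanged, whereas 42.5% of the real loci were called below and 40.8% above, so these rates do not carry over to the real fit. Values of a CLIP and an input library were paired because their labels name the same list. Deviations of same-numbered libraries from their group means correlated at 0.029, −0.041 and 0.16 over 3307 loci, which does not settle whether they share a source. Replicates are biological, per the labels.

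The genes, lists and tests were chosen with earlier results of these data known. The rule for naming loci asks for values of every locus past the threshold; the plot of ratios shows all of them, and the text prints the lowest and the highest locus of each complex and a few others. No sequence is printed, because none was given with the lists.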

Additional observations from a re-analysis of the deposited data

How the results depend on the processing

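The count of 43 genes found in every list ranged from 29 to 53 over its alternatives, within 1.5 times. Leaving out each replicate gave 43 to 51. The 62 loci below the median locus were 57 to 66 of 68, or 78 of 89 intersections, under other pseudocounts, centring, peak intersections, a trend and no replicate block. Their number fell to 3 of 5 loci with at least 20 CLIP reads per bin in every list and to 6 of 7 intervals with the same ends, because few loci remain. The 5 lie in ATPsynC and ATPsynbeta alone, 1 of them over the RNase P RNA gene. All of the 5 were above 0 when adjusted for input. The number of loci below fell to 26, with 3 above, when CLIP reads were adjusted for input reads. Leaving out each replicate gave 59 to 64, with none above. The median ratio of −1.70 moved to −1.10 with at least 20 CLIP reads, to −1.29 when centred on all peaks, to −1.30 with peak intersections and to −0.44 when adjusted for input; without each replicate it was −1.80 to −1.38. The mean overlap of 80.6% was 48.8% under a rule of 50% reciprocal overlap and 59.7% among the 50% of peaks with the lowest p-values, and leaving out each replicate gave 57.3% to 93.7%. With no replicate block, where each CLIP value is set against the mean input of the 3 lists, 66 loci were below and the median was −1.71.

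Of 617 values of single loci over these alternatives, 552 kept direction and side of the threshold, 43 were no longer past it, 9 newly passed it and 13 changed sign. The adjustment for input gave 0.50, 0.28, 0.77 and 0.71 at ATPsynC, 0.11 at ATPsynbeta, 0.12 at ND-MLRQ, 0.32 at ND-15 and 0.021 at ND-B14.5B. The last 2 were past the threshold under neither setting. Centring on all peaks gave 0.40 at ND-15 and 0.015 at ND-B14.5B, and ND-15 was also above 0 with a pseudocount of 2 (0.011) and ranged from −0.25 to 0.16 (0.062 without replicate 2) when each replicate was left out; the cause was not tested. Reads outside peaks were not analysed here, so the absence of a peak does not show the absence of m6A.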

Other observations

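Mitochondrial genes outside the 88 that also feed or complete the chain had mostly low CLIP to input ratios. All 19 loci of the respiratory chain genes with other names were below the median locus, with a median centred ratio of −1.66 on the log2 scale, where 42.5% of all loci were below. The lowest lay in cype, a subunit of complex IV, at −2.44, and the highest in Cyt-c1, at −0.87. Of the 31 loci of carriers and citric acid cycle genes, 28 were below and none above, with a median of −1.46. Low ratios were not limited to mitochondrial genes: 22 of 24 loci of the muscle markers, 16 of 17 of the photoreceptor markers and 8 of 9 of the glial markers were below the median locus, with medians of −1.69, −1.52 and −1.35. The neuronal markers had 8 of 15 below and a median of −0.59. Single genes held most of the muscle, photoreceptor and glial loci: Mhc 17 of the 24, trp 14 of the 17 and nrv2 7 of the 9. These counts therefore describe those genes rather than cell types. Other markers went the other way: the only loci of repo and bt had means of 1.21 and 0.39, and the 3 of brp 0.41 to 1.62. The highest locus of trp stood at 1.60. Called above were 2 neuronal, 1 glial and 1 photoreceptor locus. Porin, the channel of the outer membrane, ranged from −2.25 to −1.36 over 4 loci. The subunits of isocitrate dehydrogenase did not move together: the single locus of Idh3b had a mean of 0.71, that of Idh3g −1.76, and those of Idh3a −1.26 and 0.43. These 3 genes were singled out after their values were seen, and the difference between them was not tested.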
